A study of Mus musculus with 6 samples.

Results

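The genes described are 10 that encode core subunits of the SWI/SNF chromatin remodelling complexes. They were taken by symbol from a deposited table of 24063 gene symbols. They are the ATPases Smarca4 and Smarca2, and the scaffold subunits Smarcc1, Smarcc2, Smarcd1, Smarcd2, Smarcd3 and Smarce1. The others are the nucleosome-facing subunit Smarcb1 and the actin-related subunit Actl6a. All 10 had rows in the table and all 10 passed the filter on low counts. RNA was sequenced from mouse bone marrow LSK cells (sorted as negative for lineage markers and positive for Kit and Sca1, a fraction rich in blood stem cells and their early progeny), in 3 libraries labelled Arid2 knockout (Arid2fl/fl:MxCre+) and 3 control libraries (MxCre+). The titles of the control libraries give their Arid2 genotype as wild type (Arid2wt). The mice of both groups were of C57/BL6 background, carried the Cre transgene, were injected with pIpC at 6 to 8 weeks of age, and gave cells 6 weeks after the injection. The Cre is driven by the interferon-inducible Mx1 promoter, which is not restricted to blood cells, and pIpC mimics double-stranded RNA and so triggers interferon release. Animals and litters behind the libraries are not named in the labels, and the p-values below reflect the spread among these 6 libraries, which may in part be technical.

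SWI/SNF complexes use the energy of ATP to slide or evict nucleosomes and so open DNA to transcription factors. One ATPase, Smarca4 (BRG1) or Smarca2 (BRM), sits on a base built around a pair of Smarcc proteins (BAF155 and BAF170) and 1 of the Smarcd proteins (BAF60a, b or c), to which form-specific subunits are added: Arid1 proteins in canonical BAF, Arid2 in PBAF, and Brd9 with Gltscr1 proteins in non-canonical BAF. Members of the Smarcc, Smarcd and ATPase families are found in all of these forms, but not every paralogue need be. Not every gene described here is part of every form, and Smarcb1, for example, is not part of non-canonical BAF. The choice among paralogues is known to differ between tissues.

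Total counts ran from 12408966 to 24989866 reads in the libraries labelled knockout and from 13950708 to 28185678 in controls. Arid2 itself had 162.5, 150.2 and 155.4 CPM (counts per 1000000 reads, after TMM scaling, which adjusts for RNA composition) in libraries labelled knockout 1 to 3, against 165, 154 and 148.4 CPM in controls 1 to 3. These ranges overlap (log2 fold change 0.00, edgeR adjusted p = 0.991, interval of the ratio 90.4% to 110.9%), and whole-gene counts cannot tell a transcript that lacks the floxed part from an intact one. Xist stood at 1916 to 2016 CPM in all libraries labelled knockout and in control replicate 2, which thus came from females. Both other controls came from males, with 6.15 and 11.9 CPM of Xist and 251.7 and 277.2 CPM of Y-linked genes. Sex is therefore unequal between the groups, and a fit with a sex term sets the 3 libraries labelled knockout against 1 female control. Of the genes of the sort gate, Kit had 439 ± 11 CPM in libraries labelled knockout and 557.4 ± 86.1 CPM in controls, and Ly6a, which encodes Sca1, 13.5 ± 1.6 and 20 ± 2.1 CPM (SD, n = 3 each). Among marker lists of cells that a sort could carry over, mature neutrophil genes (5 higher of 12 tested, where 3.85% of all genes were higher) summed to 7190 to 9211 CPM in libraries labelled knockout, against 2979 to 5755 CPM in controls. Monocyte, macrophage and dendritic cell genes (6 higher of 12) summed to 2085 to 2796 against 1342 to 1578 CPM. Erythroblast genes (6 higher of 9) summed to 218.9 to 420 against 150.8 to 166.2 CPM, while the 10 stem and progenitor genes (4 lower) summed to 1438 to 1605 against 1808 to 2201 CPM. These calls are from the fit with the group as the sole term, so they do not account for sex. In the female control, replicate 2, the sums of these lists were 4772, 1578, 162 and 1808 CPM, in the order given. No marker in the table was at 0 in all 6 libraries. B and plasma cell, T and NK cell, mast cell and basophil, and stroma and endothelium sums overlapped between the groups. Of the genes tested in these lists, 1 of 8, 1 of 8, 2 of 6 and 1 of 4, in that order, were lower and 0 higher, where 4.58% of all genes were lower. Their median log2 fold changes were 0.53, 0.35, −0.84 and −0.39 in the same order, so the B and T cell medians lay above 0. Gzmb is in both the T and NK cell list and the mast cell and basophil list. The part of these lists in the results below was not tested. In bulk RNA, fewer cells of a type and less RNA per cell cannot be told apart.

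The core as a whole was expressed at nearly the same level in every library, with small differences that mostly pointed the same way. The summed level of the 10 genes was 1642, 1624 and 1591 CPM in libraries labelled knockout 1 to 3, against 1739, 1731 and 1718 CPM in controls 1 to 3. The groups did not overlap, and the mean fell to 1619 ± 26.1 CPM in libraries labelled knockout, against 1730 ± 10.8 CPM in controls (SD, n = 3 each), a difference of −6.41%, or −4.70% when Smarcc1 is left out of the sum. Of the 10 genes, 1 passed the test, Smarcc1, which was lower, and 9 did not (edgeR quasi-likelihood test, p adjusted over all 13679 genes tested, threshold 0.05). Over all genes tested, 8.42% passed in either direction and 4.58% were lower, so 1 of 10 is near the background. At an unadjusted p under 0.05 there were 3 of the 10 (Smarcc1, Smarcb1 and Smarcd1), against 24.9% of all genes. With the sex term none of the 10 passed, against 0.314% of all genes, and 2 had an unadjusted p under 0.05, against 11.9% of all genes. Log2 fold changes were below 0 for 9 of the 10 genes, against 50.4% of all genes, with a median of −0.13 against −0.00. Under upper-quartile scaling all 10 were below 0, but the share of all genes below 0 is not given for that scaling. It also moved the calls over all genes, from 526 higher and 626 lower to 473 higher and 689 lower. In 4 of them, Smarcc1, Smarcb1, Smarcd1 and Smarce1, every library labelled knockout lay below every control, and 16.1% of all genes lay that way.

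**Figure D1:**
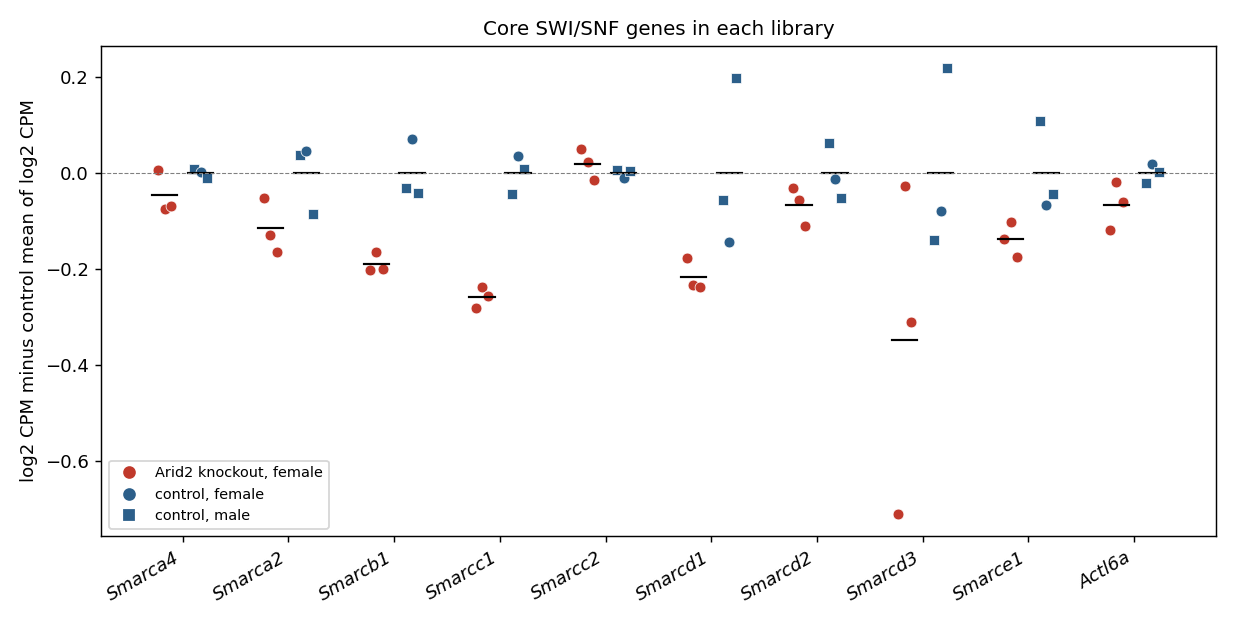
Each point is 1 library, as log2 CPM of the gene minus the mean of log2 CPM in controls; libraries labelled knockout are left of the controls for each gene, black lines are group means, and squares are libraries from males. All 3 libraries labelled knockout lie below all controls for Smarcc1, Smarcb1, Smarcd1 and Smarce1, and Smarcd3 has the widest spread.

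The ATPase genes differed little between the groups. Smarca4 (ENSMUSG00000032187, chromosome 9, 21616169 to 21704230, plus strand, mm10), the ATPase more often associated with dividing cells, had 360.1, 340.4 and 342 CPM in libraries labelled knockout 1 to 3, against 360.7, 358.9 and 355.8 CPM in controls 1 to 3. Replicate 1 labelled knockout lay among the controls and the other two lay below them. The log2 fold change was −0.04 with an SE of 0.06 (edgeR adjusted p = 0.68), and the level relative to controls had a 95% confidence interval of 88.5% to 106.2%. Smarca2 (ENSMUSG00000024921, chromosome 19, 26605050 to 26778322, plus strand), the alternative ATPase that is more often associated with differentiated or resting cells, had 162.7, 154.3 and 150.5 CPM against 173.2, 174.3 and 159.1 CPM. These groups overlapped as well, since replicate 1 labelled knockout lay above control replicate 3. Its log2 fold change was −0.12 (SE 0.06, edgeR adjusted p = 0.307, interval of the ratio 83.4% to 102.1%), and adding the sex term gave −0.16 (edgeR adjusted p = 0.554).

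The balance between the ATPases was measured within each library, where scaling between libraries cancels. Smarca4 had 2.21, 2.21 and 2.27 reads for each read of Smarca2 in libraries labelled knockout 1 to 3, against 2.08, 2.06 and 2.24 in controls 1 to 3. Control replicate 3 fell among the libraries labelled knockout, so the groups overlapped. The mean log2 ratio differed by 0.07 (SE 0.04, two-sided exact permutation p = 0.3, adjusted p = 0.5 over the 5 paralogue pairs compared, n = 3 each). With 3 libraries against 3 the smallest p this test allows is 0.1, so no pair could pass 0.05. Leaving out each library in turn gave differences from 0.05 (without control replicate 2) to 0.11 (without control replicate 3, which came from a male). In female libraries alone the difference was 0.12, so the size of this value rests in part on control replicate 3. Per kilobase of exonic length, Smarca4 made up 83.1 ± 0.23% of the summed ATPase level in libraries labelled knockout and 82.4 ± 0.64% in controls. Smarca2 has many annotated transcripts, which give it 14.3 kb of exonic sequence in all but 5.92 kb in the longest one, and on the longest transcripts the Smarca4 share was 67.4 ± 0.36% and 66.4 ± 0.99%. The size of the share thus rests on the length used, while Smarca4 exceeded Smarca2 in all 6 libraries on both.

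Among the scaffold subunits, the Smarcc pair showed the clearest shift. Smarcc1 (BAF155, ENSMUSG00000032481, chromosome 9, 110117708 to 110240178, plus strand) can pair with Smarcc2 at the base of the complex. It had 208, 214.3 and 211.4 CPM in libraries labelled knockout 1 to 3, against 245, 259 and 254 CPM in controls 1 to 3. The spread within each group was small, 211.2 ± 3.1 against 252.7 ± 7.1 CPM (SD, n = 3 each), and the groups lay well apart. Smarcc1 was at 83.6% of the control level, with a 95% confidence interval of 76.6% to 91.2% (−0.26 on the log2 scale, SE 0.06, edgeR adjusted p = 0.0289). The female control, replicate 2, had the highest value of all, and adding the sex term gave a log2 fold change of −0.29 (SE 0.08), with an edgeR adjusted p of 0.219. The call was lost in 5 of the 6 fits that leave out 1 library: without replicate 1, 2 or 3 labelled knockout the edgeR adjusted p was 0.0983, 0.0936 and 0.0751, and without control replicate 1 or 2 it was 0.0664 and 0.0828. The log2 fold changes of the 6 fits stayed between −0.28 and −0.23.

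Smarcc2 (BAF170; ENSMUSG00000025369, chromosome 10, 128459248 to 128490482, plus strand), its partner in the scaffold, did not follow Smarcc1. It had 322.4, 316.5 and 308.5 CPM in libraries labelled knockout 1 to 3, against 312.9, 309.4 and 312.3 CPM in controls 1 to 3, and the groups overlapped. The ratio to control was 101.4% with an interval of 92.9% to 110.7% (log2 fold change 0.02, SE 0.06, edgeR adjusted p = 0.863), and the sign turned under upper-quartile scaling. Smarcc1 had 0.645, 0.677 and 0.685 reads for each read of Smarcc2 in libraries labelled knockout 1 to 3, against 0.783, 0.837 and 0.813 in controls 1 to 3. Every library labelled knockout was below every control. The mean log2 ratio was −0.58 ± 0.05 in libraries labelled knockout and −0.30 ± 0.05 in controls (SD, n = 3 each), a difference of −0.28 with an SE of 0.04. The exact permutation p was 0.1, the smallest the design allows (adjusted p = 0.5 over the 5 pairs). Against the female control alone the difference was −0.32, and it lay between −0.30 and −0.25 when each library was left out in turn. Per kilobase of exonic length, Smarcc1 supplied 32.2 ± 0.69% of the Smarcc level in libraries labelled knockout and 36.5 ± 0.78% in controls.

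**Figure D2:**
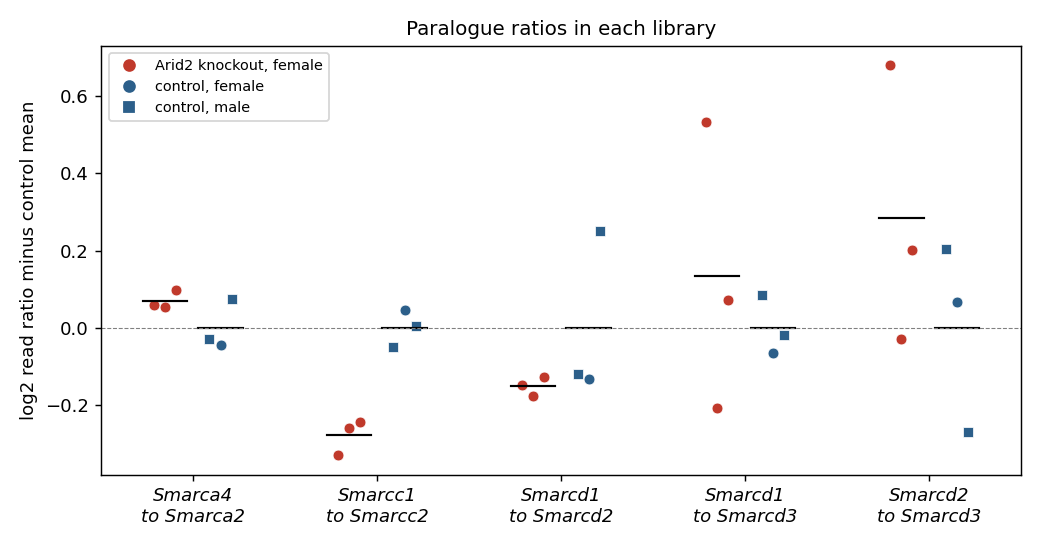
Each point is 1 library, as the log2 ratio of the reads of the paralogues named minus the mean of that ratio in controls; libraries labelled knockout are on the left, black lines are group means, and squares are libraries from males. The groups are apart for Smarcc1 to Smarcc2 and overlap for the other 4 pairs.

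**Figure D3:**
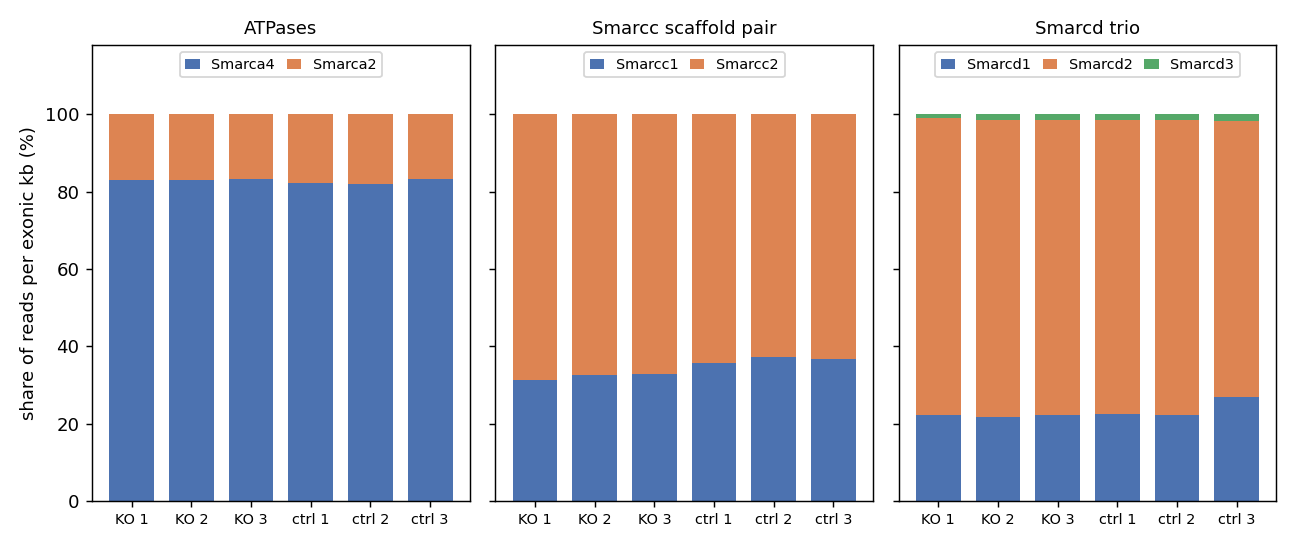
Stacked bars give, for each library, the share (%) that each gene has of the summed reads per exonic kilobase of its paralogue group; KO marks libraries labelled knockout and ctrl controls. The Smarcc1 share lies between 31.4% and 32.7% in libraries labelled knockout and between 35.7% and 37.2% in controls.

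Smarcb1 (ENSMUSG00000000902, chromosome 10, 75896769 to 75921617, minus strand), the subunit (SNF5, BAF47) that contacts the acidic face of the nucleosome, had values that ran alongside those of Smarcc1. It had 84.2, 86.3 and 84.3 CPM in libraries labelled knockout 1 to 3, against 94.7, 101.7 and 94.1 CPM in controls 1 to 3. The groups did not overlap, and the female control was again the highest. The ratio was 87.7% with an interval of 79.8% to 96.3%, but the gene did not pass the test (log2 fold change −0.19, SE 0.06, unadjusted p = 0.0118, edgeR adjusted p = 0.0876). Adding the sex term gave −0.26 (SE 0.08, edgeR adjusted p = 0.261). Over the 6 libraries, log2 CPM of Smarcb1 and Smarcc1 had a Pearson r of 0.96, the highest of any pair of members, and that of Smarcc2 with Actl6a the lowest, −0.65. These correlations describe 6 libraries that share their group difference.

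DNA before the RefSeq starts of Smarcc1, Smarcb1 and Smarcc2 is shown because the values of the first pair ran alongside each other and those of the third did not. Whether these sequences bear on those values was not tested. RefSeq promoters (GRCm38.p6) were matched by symbol for 9 of the 10 members (all but Smarce1). Each line below gives the 200 bases from 250 to 51 before the RefSeq start, 5′ to 3′ on the gene's strand, with every CG dinucleotide in capitals, and none of these windows holds an exon annotated by GENCODE. The Smarcb1 and Smarcc2 windows lie outside the gene spans given above, whereas the Smarcc1 window lies inside its span, 14.07 kb from the first base, because a GENCODE transcript starts farther upstream.
Smarcc1, chr9:110131774-110131973, plus strand: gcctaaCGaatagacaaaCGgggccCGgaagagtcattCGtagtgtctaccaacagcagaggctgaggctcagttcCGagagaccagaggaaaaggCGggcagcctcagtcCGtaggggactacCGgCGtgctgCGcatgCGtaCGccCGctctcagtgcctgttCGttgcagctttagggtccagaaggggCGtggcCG
Smarcb1, chr10:75921665-75921864, minus strand: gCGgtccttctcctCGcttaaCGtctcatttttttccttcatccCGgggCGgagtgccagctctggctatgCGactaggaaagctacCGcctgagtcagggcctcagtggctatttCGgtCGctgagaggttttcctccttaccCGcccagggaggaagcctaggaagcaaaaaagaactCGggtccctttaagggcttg
Smarcc2, chr10:128458986-128459185, plus strand: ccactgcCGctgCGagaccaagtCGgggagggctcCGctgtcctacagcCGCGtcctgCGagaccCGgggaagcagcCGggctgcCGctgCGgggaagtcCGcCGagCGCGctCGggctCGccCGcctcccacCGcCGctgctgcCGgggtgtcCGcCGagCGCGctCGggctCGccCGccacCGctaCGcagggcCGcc

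The windows of Smarcc1, Smarcb1 and Smarcc2 held 16, 11 and 31 CG dinucleotides, against a median of 4 over 32851 RefSeq promoters, and 84.1%, 73.3% and 98.3% of those promoters held fewer. Of the 9 windows, 8 held 11 to 31, and that of Smarcd2 held 1. The Smarcd2 window lies wholly inside its GENCODE gene span, 5.09 kb from the first base, as do those of Smarcc1, Smarcd3 and Actl6a in theirs, and 3 of the 9 (Smarca2, Smarcd1 and Smarcd2) hold GENCODE exons, so these counts are not all of DNA upstream of transcription. The letters GGGCGG, the core of the GC box that Sp1 family factors bind, were found on either strand in 5 of the 9 windows (Actl6a, Smarca2, Smarca4, Smarcb1 and Smarcd2) and in 24.6% of all promoters. TATAAA was found in the window of Smarcd2 and in 9.1% of all promoters, and CCAAT in none of the 9 and in 28.4% of all. The Smarcc1 and Smarcc2 windows held none of these motifs, which says only that these letters are not in them.

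The Smarcd genes encode alternative bridge subunits of which a complex holds 1. Smarcd1 (BAF60a; ENSMUSG00000023018, chromosome 15, 99702129 to 99713991, plus strand) lies 3.3 Mb from Arid2. It had 70.4, 67.8 and 67.6 CPM in libraries labelled knockout 1 to 3, against 76.7, 72.1 and 91.5 CPM in controls 1 to 3. The groups did not overlap, though the gap was small and control replicate 3 stood above all others. The log2 fold change was −0.22 (SE 0.09, edgeR adjusted p = 0.174, interval of the ratio 74.4% to 99.1%). It was −0.12 without control replicate 3 and −0.07 with the sex term, so much of the value rests on that library, which came from a male.

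Smarcd2 (BAF60b; ENSMUSG00000078619, chromosome 11, 106263179 to 106272972, minus strand), which mice need to form neutrophil granules, was the most abundant of the Smarcd genes. It had 218.6, 214.8 and 206.8 CPM in libraries labelled knockout 1 to 3, against 233.2, 221.4 and 215.5 CPM in controls 1 to 3. These groups overlapped (log2 fold change −0.07, SE 0.06, edgeR adjusted p = 0.544, interval of the ratio 87% to 105%). The summed level of the mature neutrophil markers was higher in every library labelled knockout than in any control (5 of 12 passed the test), while Smarcd2 averaged 213.4 against 223.3 CPM.

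Smarcd3 (BAF60c; ENSMUSG00000028949, chromosome 5, 24590818 to 24624411, minus strand), known best from heart and muscle, was nearly silent, with 66 to 160 reads per library labelled knockout and 97 to 175 per control. Its levels were 4.02, 6.45 and 5.3 CPM in libraries labelled knockout 1 to 3, against 5.96, 6.22 and 7.65 CPM in controls 1 to 3. Those ranges overlapped, and the interval of the ratio was wide, 56.5% to 113.3% (log2 fold change −0.32, SE 0.22, edgeR adjusted p = 0.412). Leaving out single libraries moved this value, to −0.16 without replicate 1 labelled knockout, to −0.51 without replicate 2 labelled knockout and to −0.21 without control replicate 3. Of the exonic sequence of Smarcd3, 48.2% overlaps Chpf2 on the opposite strand, a gene with 66 against 77.6 CPM (−0.24 on the log2 scale, SE 0.06, edgeR adjusted p = 0.0448). No source used here gives the strand setting of the counting, so how many of the Smarcd3 reads belong to Smarcd3 is uncertain.

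Shares among the Smarcd genes were close together in 5 of the 6 libraries, and control replicate 3 stood apart, with more Smarcd1 and less Smarcd2. Per kilobase of exonic length, Smarcd2 supplied 76.9%, 76.8% and 76.4% of the Smarcd level in libraries labelled knockout 1 to 3, against 76.3%, 76.3% and 71.3% in controls 1 to 3. Smarcd1 supplied 22.1%, 21.6% and 22.3% against 22.4%, 22.2% and 27%, and Smarcd3 between 0.991% and 1.77% in all 6 libraries. The mean log2 ratio of Smarcd1 to Smarcd2 differed by −0.15 (SE 0.13, exact permutation p = 0.2, adjusted p = 0.5 over the 5 pairs, n = 3 each), and by −0.03 without control replicate 3. For Smarcd1 to Smarcd3 and Smarcd2 to Smarcd3 the differences were 0.13 (SE 0.22, exact permutation p = 0.8, adjusted p = 0.8) and 0.28 (SE 0.25, exact permutation p = 0.5, adjusted p = 0.625). Single libraries moved both: without replicate 1 labelled knockout, where Smarcd3 had its lowest share, they were −0.07 and 0.09, and without replicate 2 labelled knockout 0.30 and 0.44. Without control replicate 3 the difference for Smarcd2 to Smarcd3 was 0.15.

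Smarce1 (BAF57; ENSMUSG00000037935, chromosome 11, 99209047 to 99231017, minus strand), an HMG-box protein that binds DNA, had 91.5, 93.8 and 89.2 CPM in libraries labelled knockout 1 to 3, against 108.6, 96.2 and 97.6 CPM in controls 1 to 3. The groups did not overlap, but the nearest libraries of each lay close together. The log2 fold change was −0.14 (SE 0.07, edgeR adjusted p = 0.246, interval of the ratio 81.7% to 101%), and −0.07 with the sex term. A processed pseudogene, Smarce1-ps1 on chromosome 8, could share reads with it, depending on how the authors counted. Actl6a (BAF53a; ENSMUSG00000027671, chromosome 3, 32706298 to 32726973, plus strand), the actin-related protein of the ATPase module in stem and progenitor cells, had 120.2, 128.9 and 125.1 CPM against 128.5, 132.2 and 130.6 CPM. Replicate 2 labelled knockout lay above control replicate 1, so the groups overlapped (log2 fold change −0.06, SE 0.06, edgeR adjusted p = 0.528, interval of the ratio 87.4% to 104.6%).

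**Figure D4:**
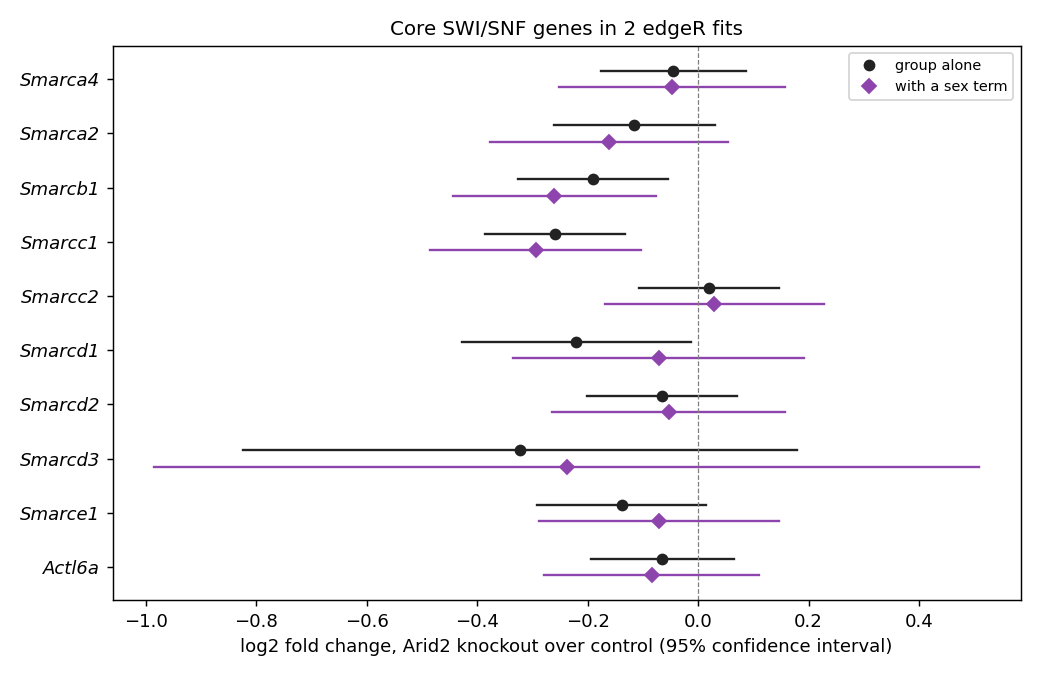
Points are log2 fold changes of libraries labelled knockout over controls from edgeR with the group alone (circles) and with a sex term (diamonds), and lines are 95% confidence intervals. With both fits the intervals of Smarcc1 and Smarcb1 lie below 0 without adjustment for the number of genes tested, and that of Smarcd3 is the widest.

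Levels of different members were compared as CPM per kilobase of exonic length. Smarcd2, Smarcc2 and Smarca4 stood at the top with 59.5 ± 1.7, 56.9 ± 1.3 and 53.7 ± 1.7 CPM per kb in libraries labelled knockout, against 62.2 ± 2.5, 56.1 ± 0.34 and 55.4 ± 0.38 CPM per kb in controls (SD, n = 3 each). Neighbours within these 3 overlapped over the 6 libraries, and all 3 lay above the rest. Actl6a and Smarcc1 followed with 32.1 ± 1.1 and 27 ± 0.4 against 33.6 ± 0.48 and 32.3 ± 0.9 CPM per kb, and overlapped each other. Next came Smarcd1 at 17 ± 0.4 against 19.9 ± 2.5 CPM per kb, and Smarce1 at 13.8 ± 0.35 against 15.2 ± 1 CPM per kb, each apart from its neighbours. Smarcb1 (10.7 ± 0.15 against 12.2 ± 0.53 CPM per kb) and Smarca2 (10.9 ± 0.44 against 11.8 ± 0.59 CPM per kb) overlapped, and Smarcd3 was last at 1.03 ± 0.24 against 1.29 ± 0.18 CPM per kb. With the length of the longest transcript, Smarcd2 (79.5 CPM per kb over the 6 libraries) and Smarcc2 (68.8) stayed at the top and Smarcd3 (1.57) at the bottom. Actl6a, at 63.5 CPM per kb, was then above Smarca4, at 55.4 CPM per kb, and Smarce1 (30.8) and Smarca2 (27.4) were above Smarcd1 (22.5). Of the 10 genes, 4 kept their place, and the order of the middle ranks thus rests on the length used.

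**Figure D5:**
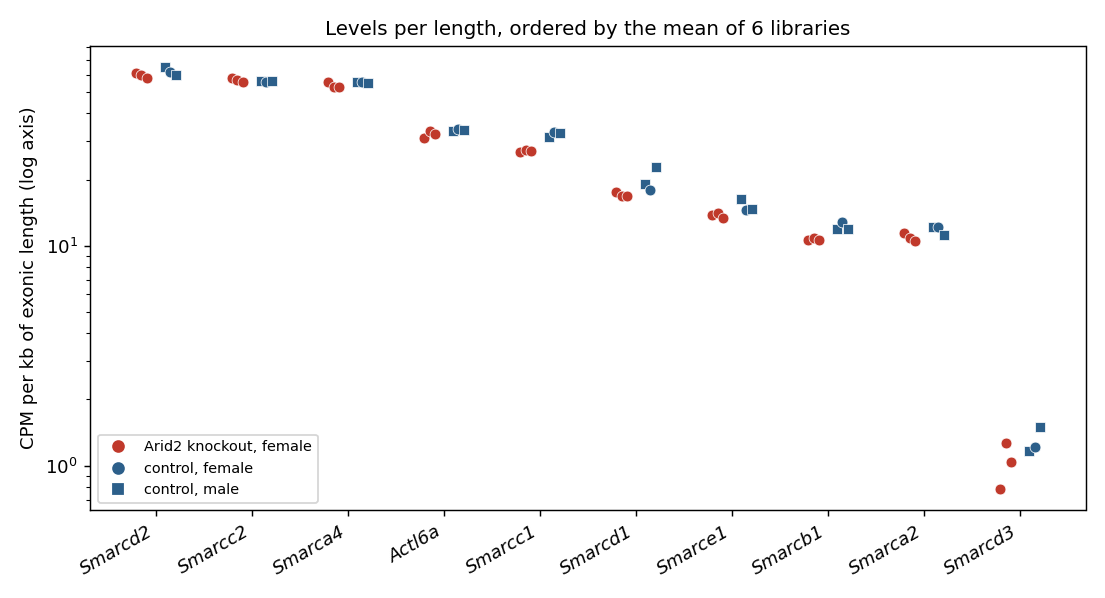
Each point is 1 library, as CPM per kilobase of exonic length on a log axis, with genes ordered by the mean of 6 libraries; libraries labelled knockout are left of the controls. Smarcd2, Smarcc2 and Smarca4 lie above 50 CPM per kb in every library and Smarcd3 below 1.5.

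The other SWI/SNF subunits, some of them specific to a form and some shared, gave a mixed picture. Of 19 listed, 17 passed the filter on low counts and none of these passed the edgeR test at the threshold, with 6 at an unadjusted p under 0.05 (against 24.9% of all genes), 1 called by DESeq2 and 1 by limma-voom, against 8.42% of all genes called by edgeR, 12.2% by DESeq2 and 8.06% by limma-voom. Their log2 fold changes were below 0 in 11 and above 0 in 6, with a median of −0.03. Those with the smallest p were Actb, Gltscr1l and Ss18. Actb, the actin of the complex and of the cytoskeleton, had 3112, 3001 and 3102 CPM in libraries labelled knockout 1 to 3, against 2434, 2703 and 2234 CPM in controls 1 to 3 (log2 fold change 0.32, SE 0.09, edgeR adjusted p = 0.061, and 0.18 with the sex term). With the group as the sole term, Actb was called by DESeq2 (adjusted p = 0.00269), by limma-voom (adjusted p = 0.037) and without control replicate 2 (edgeR adjusted p = 0.0433). The last of these fits lacks the female control and so sets females against males, where sex and group cannot be told apart. Gltscr1l, a subunit of non-canonical BAF now named Bicral, had 50.6, 50.5 and 49.5 against 56.3, 59 and 64.9 CPM, a log2 fold change of −0.26 (SE 0.07, edgeR adjusted p = 0.0624). Ss18, of canonical and non-canonical BAF, had 87.4, 96.3 and 93.9 against 104.3, 107 and 109.3 CPM, a log2 fold change of −0.21 (SE 0.06, edgeR adjusted p = 0.0779). In all 3 genes, which were picked by their small p, the groups did not overlap. Among all 17 tested, 6 had every library labelled knockout below every control and 2 had every one above. Over all genes, 31.2% were without overlap in either direction.

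Genes with the most similar pattern over the 6 libraries were sought among 6756 genes whose mean log2 CPM was 5 or more. For Smarca4 they were Psd4 (Pearson r 0.99), Maea (0.98) and Mcm3 (0.98), and for Smarcc1 they were Trp53bp1 (0.997), Ergic1 (0.995) and Ankrd17 (0.99). A correlation above 0.9 was reached by 43 genes for Smarca4 and by 273 for Smarcc1, whose pattern follows the group difference, so these values describe the 6 libraries alone. Overlapping genes were also looked at. Dhx30 shares 1.6% of the exonic sequence of Smarcc1 on the opposite strand and had a log2 fold change of −0.06 (SE 0.06, edgeR adjusted p = 0.541). Mrpl47 shares 11.6% of that of Actl6a and had −0.04 (SE 0.11, edgeR adjusted p = 0.879).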

How the data were processed

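The authors deposited raw read counts per gene symbol as whole numbers, 1 column per library, with no normalization. The submitters' processing notes list STAR and mm10. No source used here states how reads were assigned to genes (tool, annotation, strand); the STAR version is likewise not given. Poly(A)-selected RNA was made into libraries with a directional kit, per the labels' protocols.

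Counts were tested here with edgeR 4.0.16 in R 4.3.3: filterByExpr (minimum count 10, minimum total 15), TMM scaling, and a quasi-likelihood F test with the group as the sole term over 13679 of 24063 symbols, with Benjamini-Hochberg adjustment over all of them. CPM values use the same scaling, and standard errors were derived from the F statistic. Exonic lengths and positions come from GENCODE M21 (GRCm38, mm10), and sequences from RefSeq tables of GRCm38.p6. Paralogue ratios were compared with an exact permutation test over libraries. Libraries of a pair differed by a chi-square statistic of at least 8.29 per degree of freedom, so none repeated another. The same edgeR steps, written out separately, were run on simulated counts with no sex difference, and the outcome is not given here. Confidence intervals reflect the model's estimate of variation among libraries.

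The members, the lists of other subunits and markers, and the tests were chosen with earlier results of these data known. Named genes are the 10 members, Arid2, the 3 other subunits with the smallest p, and for Smarca4 and Smarcc1 the 3 genes with the highest correlation; Chpf2, Dhx30 and Mrpl47 were named after their values were seen, as overlapping genes. Alternatives were DESeq2 size factors, upper-quartile scaling, no filter, a filter of 1 CPM in 3 libraries, DESeq2 1.42.0, limma-voom (limma 3.58.1), a replicate block, each library left out, a sex term, an adjusted p of 0.1 and, added after seeing the data, female libraries alone for the edgeR fit; for ratios, female libraries, 0.5 added to each count and summed counts.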

Additional observations from a re-analysis of the deposited data

How the results depend on the processing

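Smarcc1 kept its sign in all 15 alternatives (log2 fold change −0.30 to −0.23, adjusted p 0.0043 to 0.219) and passed in 8 of them. The number of members called was 0 with the sex term, 0 in female libraries alone, 0 to 1 when each library was left out, and 2 at an adjusted p of 0.1, where Smarcb1 joined. The number of all genes called was 43 with the sex term, 39 in female libraries alone, 2002 at an adjusted p of 0.1 and 290 to 984 when each library was left out, against 1152. Of the other subunits, 1 was called with DESeq2, 1 with limma-voom, 4 at an adjusted p of 0.1 and 0 to 1 when each library was left out. Smarcc2 had −0.00404 with upper-quartile scaling. Arid2 had −0.0217 with upper-quartile scaling, −0.00174 with no filter, and −0.0323 (without control replicate 3) to 0.0441 (without control replicate 1) when each library was left out, below 0 also without knockout replicate 1 (−0.0277). Smarcd1 to Smarcd3 ran from −0.0669 to 0.303 when each library was left out. With the longest transcript, 4 of 10 members kept their rank. The cause was not tested. Fewer samples enter the fits that leave out a library.

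Libraries share replicate numbers, and the correlation of same-numbered deviations from the group means was 0.43, 0.0058 and 0.43 for replicates 1 to 3. Values of the same size with the opposite sign were found for replicate 1 labelled knockout with control 3 (−0.44) and replicate 3 labelled knockout with control 1 (−0.43). Replicate 2 labelled knockout was near 0 with every control (0.041, 0.0058 and −0.039 with controls 1 to 3). The 3 deviations within a group sum to 0, so these correlations are not independent and cannot decide whether the numbers are pairs. The main fit did not take the numbers as pairs. With the replicate block, 2172 genes, 1 member (Smarcc1) and 5 other subunits were called (Actb, adjusted p = 0.037, Gltscr1l, 0.0454, Ss18, 0.0466, Dpf3, 0.035, and Phf10, 0.0444; Dpf3 and Phf10 were named after their values were seen), and the Smarcc1 to Smarcc2 difference had an exact p of 0.25, the smallest that block allows.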
